A study of Mus musculus with 3 samples.

Results

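Round spermatids carrying the MiwiR371W allele of Miwi were compared with round spermatids carrying the MiwiΔIns allele, gene by gene, in 1 library of each. Of 17946 genes in the deposited table, the 12587 with a mean value of at least 1 over the MiwiR371W and MiwiΔIns libraries were included. At that limit, Gm8011 was inside with values of 0.60 and 1.40 in MiwiΔIns and MiwiR371W, and Prdm6 was outside with 0.87 and 1.12. The study set messenger RNA of both mutants beside wild type, and the wild-type library is used here only as a point of reference. All 3 libraries came from C57BL/6 mice aged 28 days, with round spermatids sorted by flow cytometry on the DNA dye Hoechst. The labels name the alleles without describing the lesions or the allele on the other chromosome, and give neither the number of animals pooled nor the sorting purity. By the usual notation R371W stands for tryptophan in place of arginine at the numbered residue of the protein. With 1 library a genotype there is no replicate error and no test, so every difference below describes a pair of libraries.

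MIWI, encoded by Piwil1, is a PIWI-clade Argonaute protein of meiotic and postmeiotic male germ cells. It binds piRNAs, short RNAs that guide PIWI proteins to complementary transcripts, and it is known for silencing transposons and for roles in the storage, translation and removal of spermatid mRNAs. Round spermatids are the haploid cells that build the acrosome and flagellum and stockpile mRNAs, among them those of transition proteins and protamines, for use after transcription stops.

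Values are the deposited length- and library-normalised signal, and log2 ratios are log2 of (MiwiR371W + 1) over (MiwiΔIns + 1), which understates differences of low genes. Piwil1 (chromosome 5, 128702524 to 128755474, GRCm38) measured 20.3 in the wild type, 23.2 with MiwiΔIns and 23.5 with MiwiR371W. The log2 ratio between the mutants was 0.01, and the value does not tell the alleles apart. The cell type label was checked against markers: all 18 markers of early and mid round spermatids and all 18 of elongating spermatids had a mean of at least 1. Their summed values were 7266 and 30950 in MiwiΔIns and 5492 and 24750 in MiwiR371W. Meiotic spermatocyte markers summed to 2051 and 2190. Sertoli cell markers summed to 41.4 and 41.6, Leydig cell markers to 56.2 and 44.1, and macrophage and leukocyte markers to 16.2 and 17.8. Peritubular and endothelial markers summed to 222 and 196, but without Actg2, a smooth muscle actin, to 16.4 and 48.05. In bulk RNA, fewer cells of a type and less RNA per cell cannot be told apart. Depth also differed: at 1 kb of effective transcript length a value of 5 stood for about 73.0 fragments in MiwiΔIns and 54.6 in MiwiR371W.

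Most genes had similar values in both mutants. The median log2 ratio over the 12587 genes was 0.03, with quartiles of -0.29 and 0.29 and extremes of -3.41 and 2.77. It lay within 0.5 of 0 for 74.0% of genes and within 1 for 95.2%. Genes counted as higher or lower were those whose difference reached 2-fold on this scale with a higher value of at least 5. By this size rule 111 genes were higher in MiwiR371W and 281 were lower, which is 1.27% and 3.21% of the 8744 genes that reached 5 in either library. Another 8352 of these were neither, and 3843 genes below 5 in both libraries could not be counted. The split leaned to lower genes, with 28.3% of the 392 counted genes higher, but it depended on the scale. After scaling the whole table to equal sums, 175 genes were higher and 188 lower, and without mitochondrial genes and the 50 most abundant genes 163 were higher and 193 lower. Those scalings moved the median of all genes to 0.15 and 0.14. A pseudocount of 5 left 31 higher and 143 lower.

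**Figure D1:**
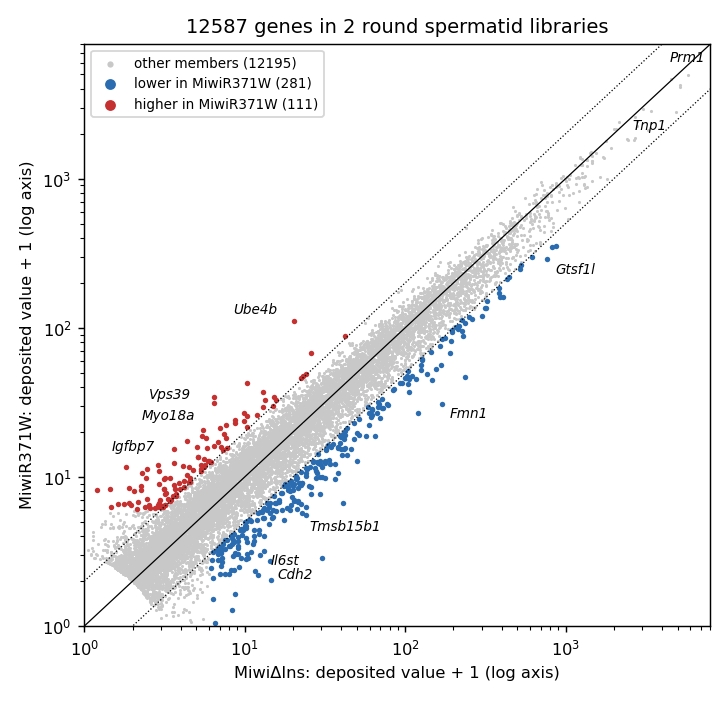
Each point is 1 of 12587 genes, with its deposited value plus 1 in MiwiΔIns on the horizontal axis and in MiwiR371W on the vertical axis, both logarithmic; the solid line marks equal values and the dotted lines a 2-fold difference. The 111 higher genes (red) lie at low values, with a median of 10.01 in MiwiR371W, and the 281 lower genes (blue) reach into abundant transcripts.

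The higher genes were mostly of low abundance. Their median value in MiwiR371W was 10.01, and 1 of the 111, Ube4b, reached 100. The lower genes had a median of 21.9 in MiwiΔIns, and 52 of the 281 reached 100. Over all 8744 genes that reached 5, the median of the higher value was 26.5 and 1712 reached 100. The lower genes were thus not more abundant than genes in general. The wild-type value lay between the mutants for 80 of the higher genes and 235 of the lower genes. A gene with a wide gap between a pair of libraries tends to have any other library inside the gap, so nothing is read from those shares. Set beside wild type, which both ratios share, the median log2 ratio of the lower genes was -0.77 for MiwiR371W and 0.51 for MiwiΔIns. For the higher genes the medians were 1.02 and -0.35. The genes were chosen by the ratio between the mutants, which is the difference of their log2 ratios to wild type. A gap between these medians is therefore built in, and nothing is read from it. Near-identical copies elsewhere in the transcriptome, between which reads may be divided, existed for 30.6% of the higher genes, 13.2% of the lower genes and 7.96% of all genes that reached 5.

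Ube4b, a ubiquitin chain elongation factor (chromosome 4, 149328416 to 149426749), had the largest value among the higher genes. It stood at 24.9 in the wild type, 19.4 with MiwiΔIns and 109.5 with MiwiR371W, a log2 ratio of 2.44 between the mutants. The gene has 12 annotated transcripts and overlaps antisense transcripts, and the labels do not say whether the libraries keep the strand. Vps39, a subunit of the HOPS complex that tethers late endosomes to lysosomes, measured 16.2, 5.4 and 33.5 in the same order, a log2 ratio of 2.43. Myo18a, an unconventional myosin, measured 14.2, 5.45 and 30.1, a log2 ratio of 2.27. For both genes MiwiΔIns was below wild type and MiwiR371W above it. Vps39 rested on an estimated 137 and 617 fragments in MiwiΔIns and MiwiR371W and Myo18a on 407 and 1667.

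Other named coding genes with large positive ratios had the following values. Vta1, a cofactor of the ESCRT machinery that sorts membrane proteins into endosomal vesicles, measured 12.4, 7.70 and 23.0 in wild type, MiwiΔIns and MiwiR371W (log2 ratio 1.46). Dennd1b, an exchange factor for Rab GTPases, measured 6.92, 4.03 and 14.9 (1.66). Spns1, a lysosomal lipid transporter, measured 6.10, 3.36 and 16.5 (2.0). In each of these genes, too, wild type lay between the mutants. Igfbp7, a secreted binding protein of insulin-like growth factors, measured 2.08, 1.90 and 11.0 (2.05), and Sparc, a matrix glycoprotein, measured 3.99, 2.64 and 11.3 (1.76). Both were high in MiwiR371W alone. Plac9b (23.7, 2.64 and 14.5; log2 ratio 2.09), Cdk2ap1 (11.7, 4.71 and 17.3; 1.68), Erdr1 (0.19, 6.03 and 20.2; 1.59) and the spermatogenesis-associated Speer4c (7.23, 11.9 and 35.96; 1.51) have near-identical copies, so these values are uncertain. Erdr1 was low in wild type only, while Plac9b was highest there.

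Among named coding genes, those with the most negative ratios were Fmn1, Cdh2, Il6st and Tmsb15b1; several noncoding genes and pseudogenes lay further below. Fmn1, a formin that assembles actin filaments at cell junctions (chromosome 2, 113327736 to 113716767), measured 101.6 in the wild type, 168.6 with MiwiΔIns and 30.1 with MiwiR371W, a log2 ratio of -2.45. Cdh2, which encodes N-cadherin, measured 17.3, 13.3 and 1.75, a ratio of -2.38. Tmsb15b1, a thymosin that binds actin monomers, measured 28.6, 21.9 and 4.73, a ratio of -2.0. Cdh2 and Tmsb15b1 were highest in wild type and low in MiwiR371W, whereas for Fmn1 the wild-type value lay between the mutants. Fmn1 rested on an estimated 5129 fragments in MiwiΔIns and 668 in MiwiR371W, and Cdh2 on 678 and 66. Tmsb15b1 rested on only 44 and 5, and it overlaps Tmsb15b2 and Tmsb15l on the same strand, so its values are uncertain. Tubb6, a beta-tubulin, measured 42.7, 42.5 and 13.1 (-1.63), and Sag, the visual arrestin, measured 11.2, 11.3 and 3.17 (-1.56). These were level in wild type and MiwiΔIns. By contrast Il6st, the shared receptor subunit of interleukin-6 family cytokines, measured 1.84, 12.1 and 2.19 (-2.04), so that MiwiΔIns stood apart from both other libraries.

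Riiad1 measured 99.1, 145 and 43.8 in wild type, MiwiΔIns and MiwiR371W (log2 ratio -1.71), and Shank2, a synaptic scaffold protein, measured 11.2, 18.3 and 4.98 (-1.69). Nmnat3, an enzyme of NAD synthesis, measured 35.1, 55.7 and 17.9 (-1.59), Iqcf6 measured 27.8, 45.1 and 14.5 (-1.58), and Cachd1 measured 4.43, 10.4 and 2.70 (-1.62). Gmppb, which makes the sugar donor GDP-mannose, measured 19.6, 29.2 and 9.0 (-1.59) and overlaps Rnf123 on the other strand. In each of these the wild-type value lay between the mutants. Among the 52 lower genes with at least 100 in MiwiΔIns, 23 carried RIKEN clone names. Others of this set, chosen after their values were seen, were Fam183b (209, 406 and 161), Tex29 (244, 389 and 159), Spanxn4 (203, 314 and 136) and Mbd3l1 (182, 299 and 120).

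**Figure D2:**
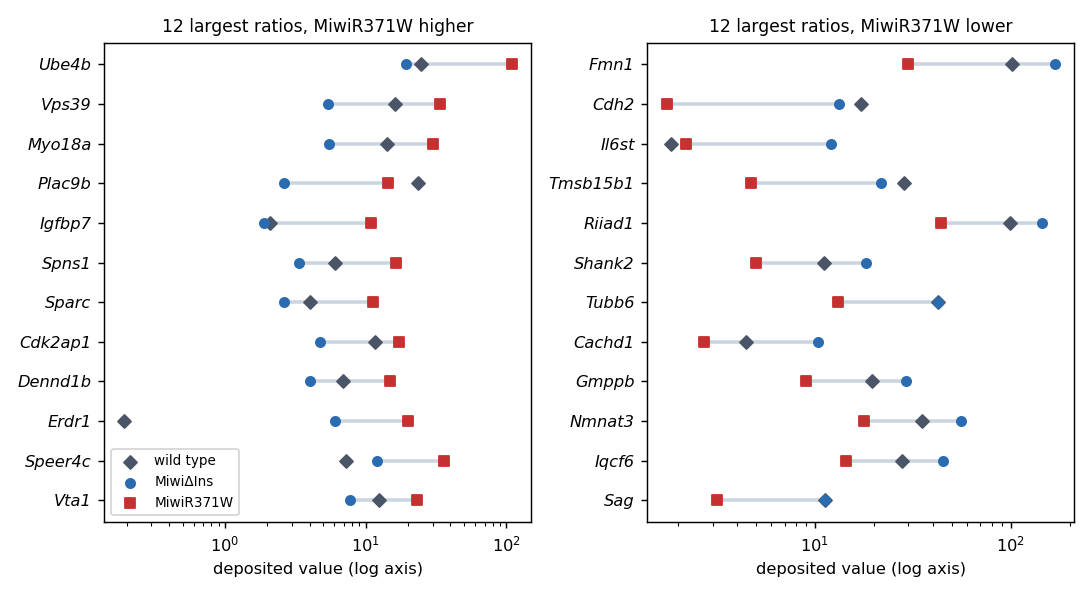
Deposited values (logarithmic axis) in wild type (diamonds), MiwiΔIns (circles) and MiwiR371W (squares) for the 12 named coding genes with the largest positive ratios (left) and the 12 with the largest negative ratios (right), 1 library a symbol. Ube4b runs from 19.4 to 109.5 between the mutants and Fmn1 from 168.6 to 30.1.

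Among 27 PIWI proteins and piRNA biogenesis factors, 24 reached 5 in either library. The size rule was passed by 1 of these 24, against the 4.48% of all genes that reached 5. The list's median log2 ratio was 0.17, with 19 positive and 8 negative. The gene that passed, Gtsf1l, encodes a paralog of GTSF1, a zinc finger cofactor of PIWI proteins. Gtsf1l measured 522 in the wild type, 761 with MiwiΔIns and 288 with MiwiR371W, a log2 ratio of -1.40, with wild type between the mutants. Gtsf1 measured 295, 380 and 280 (-0.44). At the other end, Mov10l1, the helicase that starts piRNA processing, measured 5.23, 5.2 and 9.32 (0.74), Tdrd5, a Tudor protein of germ granules, measured 4.55, 4.17 and 6.91 (0.61), and Piwil2, which encodes MILI, measured 7.37, 9.29 and 12.9 (0.44). These are low values for round spermatids beside the 430 and 412 of the RNA helicase Ddx25 in MiwiΔIns and MiwiR371W.

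The RefSeq promoter of Gtsf1l (GRCm38.p6, chr2:163089552-163089851, minus strand) is shown because this gene alone carried the counted difference in its list; it starts upstream of the gene as GENCODE draws it. Capitals mark CCAAT boxes, CCAAT or its reverse complement ATTGG, which began 75 and 100 bases before the RefSeq start.
Gtsf1l: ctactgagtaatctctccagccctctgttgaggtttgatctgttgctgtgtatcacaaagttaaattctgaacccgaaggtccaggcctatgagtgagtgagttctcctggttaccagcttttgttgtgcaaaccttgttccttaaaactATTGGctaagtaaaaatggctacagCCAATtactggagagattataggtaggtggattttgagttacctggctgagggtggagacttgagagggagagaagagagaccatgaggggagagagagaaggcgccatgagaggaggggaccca
Of all 32851 promoters in that table, each with 250 bases before and 50 bases after a start, 37.4% hold CCAAT or ATTGG on either strand. Counted by gene, with a match in any of its promoters, the share was 48.4% of 155 lower genes. It was 45.6% of 68 higher genes and 44.2% of 6188 genes that reached 5. A gene with several promoters has more chances to match, so shares by gene and by promoter are unlike measures. The cAMP response element TGACGTCA, the site of CREM-type factors, was found for 1.29% of these lower, 0% of higher and 4.19% of all such genes. A match describes letters, not binding.

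Genes of the finished acrosome had mostly negative ratios. Of 37 genes for acrosomal matrix, membrane and gamete fusion proteins, 31 had negative log2 ratios and the median was -0.67, against 0.03 over all genes. Only Fam209 passed the size rule, although 22 of the 37 lay below -0.5. Beside wild type the list's median was -0.34 in MiwiR371W and 0.14 in MiwiΔIns. Fam209, a partner of DPY19L2 in acrosome formation (chromosome 2, 172472520 to 172474331), measured 534 in the wild type, 620 with MiwiΔIns and 297 with MiwiR371W (-1.06). Its ratio fell short of the rule at -0.91 after scaling to equal sums and at -0.92 with the length and GC trend removed. Izumo2, a relative of the sperm receptor IZUMO1, measured 117, 128 and 65.2 (-0.96). Spaca4, a sperm surface protein, measured 239, 223 and 119 (-0.91), and Acrv1, of the acrosomal matrix, measured 460, 603 and 331 (-0.86). MiwiR371W was the lowest library for all 4 of these genes. Adam2, a subunit of fertilin, differed from the list with 144 in the wild type, 132 with MiwiΔIns and 172 with MiwiR371W (0.38).

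Genes that build the acrosome did not share that direction. Of 21 genes for acrosome biogenesis and vesicle traffic to it, 16 had positive ratios, the median was 0.14 and none passed the size rule. Rab6a, a Golgi GTPase, measured 19.11, 17.8 and 26.3 in wild type, MiwiΔIns and MiwiR371W (0.54), and Dpy19l2, which anchors the acrosome to the nucleus, measured 118, 103 and 136 (0.40). Spata16 measured 280, 352 and 301 (-0.23) and Ggn 331, 281 and 310 (0.14).

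Flagellar genes outside the axoneme had mostly negative ratios. Among 38 genes of the fibrous sheath, outer dense fibres and midpiece, 32 had negative ratios, the median was -0.36 and 1 passed the rule. That gene, Pmis2, measured 146 in the wild type, 250 with MiwiΔIns and 117 with MiwiR371W (-1.08), or -0.94 after scaling to equal sums. Cabyr, a calcium-binding protein of the fibrous sheath, measured 661, 813 and 448 (-0.86), and Spata19, of midpiece mitochondria, measured 337, 558 and 308 (-0.86). Smcp, a cysteine-rich component of the mitochondrial capsule, had among the largest differences in value, with 2722, 3252 and 2105 (-0.63). In Pmis2, Cabyr, Spata19 and Smcp, MiwiΔIns was the highest library and MiwiR371W the lowest. Tssk6, a kinase of sperm chromatin condensation, had the largest of the 6 positive ratios in the list at 175, 146 and 209 (0.51).

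Axonemal genes were balanced, with 23 positive and 25 negative of 48, a median of -0.02 and none past the rule. Meig1 measured 1981, 2420 and 1855 (-0.38) and Rsph1, of the radial spoke head, 850, 1263 and 1230 (-0.04). Within the axoneme the dynein heavy chains, a list added after the values were seen, had positive ratios in 12 of 13, with a median of 0.34 and none past the rule. Dnah2 measured 22.6, 25.2 and 40.5 (0.66) and Dnah1 30.5, 30.8 and 45.4 (0.54), while Dnah3 measured 45.8, 46.2 and 39.9 (-0.21). Of 37 genes for intraflagellar transport, manchette and nuclear shaping, 22 had positive ratios, with a median of 0.09 and none past the rule. Rimbp3, of the manchette, measured 275, 238 and 297 (0.32) and Spag4 340, 275 and 240 (-0.20). Of 21 sperm glycolysis genes 11 had positive ratios, with a median of 0.01 and none past the rule: Ldhc, the testis lactate dehydrogenase, measured 2094, 2780 and 2263 (-0.30) and Pgam2 1205, 1294 and 1018 (-0.35).

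**Figure D3:**
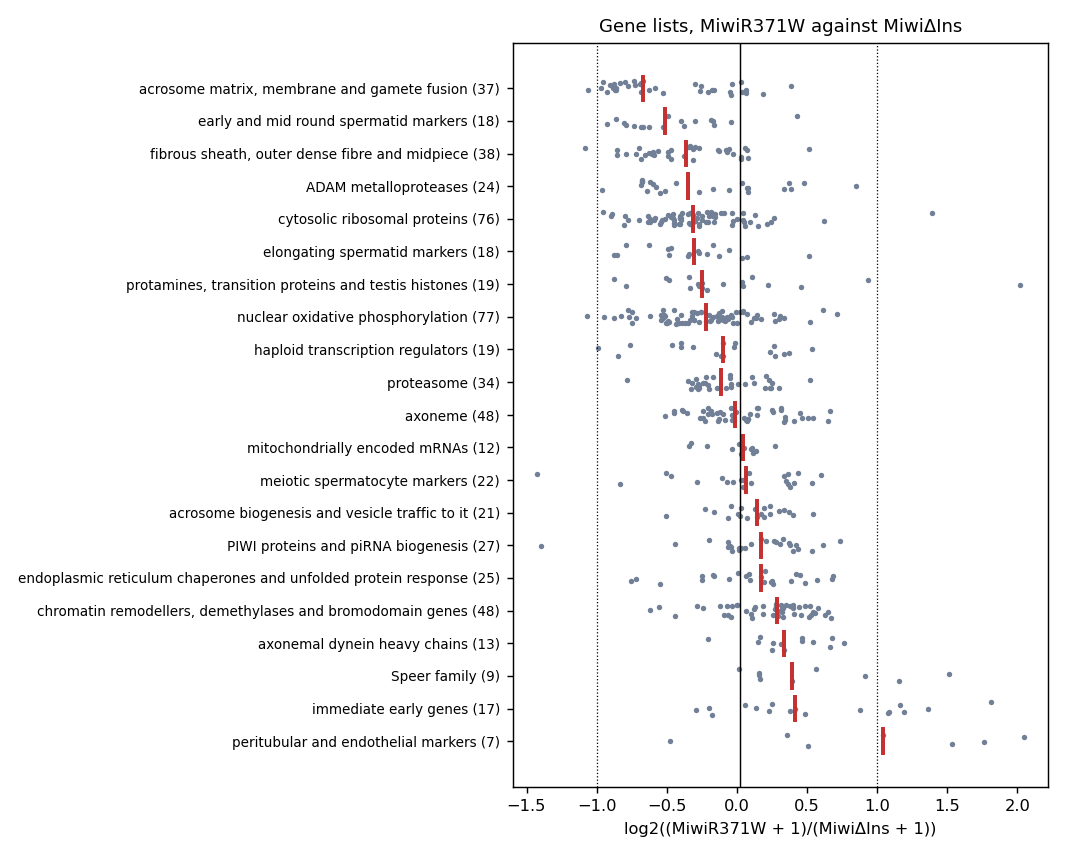
Log2 ratios of MiwiR371W over MiwiΔIns for the members of 21 gene lists, with the number of members in brackets; each point is a gene, red bars are list medians, the solid line is the median of all 12587 genes and dotted lines mark a 2-fold difference. The acrosomal list has the lowest median, -0.67, and the peritubular and endothelial markers the highest, 1.04.

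Of 19 protamines, transition proteins and testis histones 12 had negative ratios, against 5969 of 12587 over all genes, and the median was -0.25. None passed the size rule downward and 1 passed it upward. Tnp1, transition protein 1 (chromosome 1, 73015074 to 73015909), had the largest difference in value of any gene, with mitochondrial ribosomal RNA left out. It measured 2626 in the wild type, 4861 with MiwiΔIns and 2811 with MiwiR371W, a log2 ratio of -0.79, so MiwiR371W lay near wild type. Prm3 measured 376, 445 and 243 (-0.87) and Tnp2 4085, 5167 and 4265 (-0.28). The protamines differed little: Prm1 measured 4043, 5776 and 4989 (-0.21) and Prm2 3503, 4540 and 4645 (0.03). None of these passed the size rule. Hist1h2aa, a testis histone H2A, passed it upward at 1.94, 0.62 and 5.56 (2.02), but not with a pseudocount of 5 or a minimum of 10. The DNA damage histone H2afx measured 25.3, 16.4 and 32.3 (0.94). Of 25 chromatin regulators of histone removal, 13 had positive ratios, with a median of 0.05 and none past the rule. Phf7 measured 1244, 1258 and 1348 (0.10) and Brdt, the testis bromodomain protein, 209, 244 and 228 (-0.10).

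Of 19 haploid transcription regulators 13 had negative ratios, with a median of -0.10 and none past the rule. Fhl5, the coactivator of CREM also named ACT, came nearest at 192, 273 and 137 in wild type, MiwiΔIns and MiwiR371W (-0.99). Sox5 measured 221, 236 and 131 (-0.85) and Rfx4 93.5, 112 and 65.5 (-0.76). Crem itself measured 406, 482 and 365 (-0.40) and Spz1 669, 778 and 591 (-0.40). All 5 were lowest in MiwiR371W and highest in MiwiΔIns. In the opposite direction Mybl1, the meiotic regulator of piRNA precursors, measured 13.4, 15.1 and 22.3 (0.53). The 48 genes for chromatin remodellers, demethylases and bromodomain proteins, a list added after the values were seen, had positive ratios in 35, with a median of 0.29 and none past the rule. Chd3 measured 29.2, 20.4 and 33.1 (0.67), Setd5 19.02, 19.04 and 30.5 (0.65) and Chd8 8.36, 6.59 and 10.7 (0.63).

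Ribosomal protein genes had mostly negative ratios. Of 76 cytosolic ribosomal protein genes 64 had negative ratios and the median was -0.31. Abundant short genes leaned the same way in general. The 530 protein-coding genes in both the most abundant and the shortest of 5 equal bins had a median of -0.25. How far abundance and length together enter the medians of this and the other lists was not tested. Beside wild type, which both ratios share, the median was 0.31 for MiwiΔIns, with 68 of 76 genes above wild type, and -0.02 for MiwiR371W. Rpl26 measured 565 in the wild type, 1035 with MiwiΔIns and 533 with MiwiR371W (-0.96), and Rps26 measured 558, 830 and 474 (-0.81). The 1 gene past the rule went the other way: Rpl10a measured 11.97, 24.99 and 67.1 (1.39). Among 7 ribosomal protein paralogs 5 had negative ratios, with a median of -0.16, and Rps3a2, which has near-identical copies, measured 1.07, 0.97 and 5.44 (1.71), which passed the rule except with a pseudocount of 5 or a minimum of 10.

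Of 77 nuclear genes of oxidative phosphorylation 59 had negative ratios, with a median of -0.22. Ndufb4, of complex I, passed the rule at 29.5, 39.9 and 18.5 (-1.07), or -0.93 after scaling to equal sums, and Cox8a, of complex IV, measured 9.93, 13.2 and 6.38 (-0.95). A processed pseudogene near-identical to Ndufb4, Gm3244, went the opposite way with 17.6, 9.27 and 41.4 (2.04), so the division of reads between them is uncertain. Summed per library the pair came to 47.1 in the wild type, 49.2 with MiwiΔIns and 59.9 with MiwiR371W. These sums add length-normalised values of transcripts of 933 nt (Ndufb4) and 390 nt (Gm3244), so they do not count reads. In estimated fragments Ndufb4 had 369 in MiwiΔIns and 118 in MiwiR371W, and Gm3244 had 12 and 23. The 12 mitochondrially encoded mRNAs did not share that direction, with 8 positive, 4 negative, a median of 0.04 and none past the rule. mt-Atp8 measured 2613, 5187 and 4126 (-0.33) and mt-Co2 1687, 2803 and 2422 (-0.21). Gm10222, whose sequence matches mt-Nd4l, measured 149, 239 and 470 (0.97). Mitochondrial mRNAs made up 2.17% of all values in MiwiΔIns, 2.21% in MiwiR371W and 1.51% in wild type.

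Of 34 proteasome genes 22 had negative ratios, with a median of -0.11 and none past the rule. Psma6 measured 335, 520 and 302 in wild type, MiwiΔIns and MiwiR371W (-0.78) and Psmc3 629, 759 and 609 (-0.32). Of 50 ubiquitin ligases and conjugating enzymes 27 were negative, with a median of -0.06, and only Ube4b passed. Of 25 endoplasmic reticulum chaperones and unfolded protein response genes 17 were positive, with a median of 0.17 and none past the rule. Hspa5, the chaperone BiP, measured 188, 183 and 273 (0.57), Hyou1 13.4, 11.7 and 19.3 (0.68) and Clgn, a testis chaperone of sperm membrane proteins, 507, 511 and 587 (0.20). Calr measured 298, 344 and 368 (0.10). Of 17 oxidative stress genes 11 were negative, with a median of -0.27 and none past the rule: Gstm5 measured 1763, 2454 and 1820 (-0.43) and Gpx4 1559, 1699 and 1407 (-0.27). Of 27 heat shock genes 18 were positive, with a median of 0.11, and Hspb1 passed at 3.41, 3.58 and 8.85 (1.1), though not with a pseudocount of 5.

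Immediate early genes, which are induced within minutes of a stimulus, had mostly positive ratios, with the largest at low values. Of 17 such genes 14 had positive ratios and the median was 0.41. Among the 9 that reached 5 in either library 2, Fos and Junb, passed the rule upward, against 1.27% of all genes that reached 5. Both reached 5 only in MiwiR371W, the library where they are high, so no excess is read from that share. Fos measured 1.24 in the wild type, 0.91 with MiwiΔIns and 5.72 with MiwiR371W (1.81), and Junb measured 1.89, 1.87 and 5.44 (1.17). Egr1 measured 2.26, 1.69 and 4.68 (1.08) and Jun 2.02, 1.39 and 4.08 (1.09), both below 5 in every library. Fos and Junb no longer passed with a pseudocount of 5 or a minimum of 10, and the 6 members whose mean reached 5 had a median of 0.18. Positive ratios made up 4 of those 6. The 2 negative ones were Klf4 at 163, 133 and 115 (-0.20) and Egr3 at 42.0, 34.6 and 28.1 (-0.29).

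The RefSeq promoter of Fos (GRCm38.p6, chr12:85473640-85473939, plus strand) is shown because Fos had the largest ratio in this list. Capitals mark the half-site TGACG of the cAMP response element, beginning 129 and 66 bases before the start, and the TATA box TATAAA, beginning 33 bases before it.
Fos: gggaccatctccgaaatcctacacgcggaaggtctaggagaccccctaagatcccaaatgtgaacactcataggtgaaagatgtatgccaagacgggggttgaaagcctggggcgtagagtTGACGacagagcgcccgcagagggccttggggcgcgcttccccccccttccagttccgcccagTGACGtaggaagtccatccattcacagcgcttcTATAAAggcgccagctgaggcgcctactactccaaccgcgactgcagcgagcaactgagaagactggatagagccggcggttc
TGACG or its reverse complement CGTCA was in 20.8% of all promoters of this length. Counted by gene, with a match in any of its promoters, it was found for 35.0% of the genes compared here. In the list it was found for 8 of 13 genes with a promoter. Shares by gene and by promoter are unlike measures. TATAAA or TTTATA was in 13.6% of all promoters.

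Peritubular and endothelial markers also had mostly positive ratios, which Sertoli and Leydig cell markers did not. Of 17 peritubular and endothelial markers that the table holds, 13 were higher in MiwiR371W than in MiwiΔIns. The 7 with a mean of at least 1 had a median log2 ratio of 1.04, or 0.54 relative to all genes with a pseudocount of 5. Among the 5 that reached 5 in either library 4 passed the rule upward, against 1.27% of all genes that reached 5. These were Igfbp7, Sparc, Vim and Acta2, which reached 5 only in MiwiR371W. They were thus eligible only through the library where they are high, so no excess is read from that share. Vim, a filament protein of mesenchymal cells, measured 1.55, 1.45 and 6.10 in wild type, MiwiΔIns and MiwiR371W (1.53), and Acta2, smooth muscle actin, measured 1.01, 2.17 and 5.53 (1.04). Neither reached a minimum of 10, and with a pseudocount of 5 the ratio of Vim was 0.78 and that of Acta2 was 0.55. Pecam1 and Cdh5, which mark endothelium, measured 0.58, 0.34 and 1.32 and 0.65, 0.22 and 1.30. Collagen Col1a1 stayed at 0.13 in both mutants. Cnn1 (0.72, 0.37 and 0.27) and Dcn (0.42, 0.94 and 0.57) were lower in MiwiR371W than in MiwiΔIns. The whole list summed to 275 in the wild type, 222 with MiwiΔIns and 196 with MiwiR371W because Actg2, a smooth muscle actin, measured 257, 205 and 147 (-0.47). Without Actg2 the sums were 18.3, 16.4 and 48.05. The part of such cells in the ratios of Fos, Junb, Igfbp7 and Sparc was not tested. Of 7 extracellular matrix and growth factor binding genes 4 were positive, with a median of 0.38. Only 4 of the 7 reached 5, and the 2 past the rule were again Igfbp7 and Sparc.

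The other marker lists differed less, and no member of theirs passed the rule. Meiotic spermatocyte markers had 14 positive of 22 and a median of 0.07, with the chaperone Hspa2 at 958, 664 and 855 (0.36) and Syce1 at 355, 413 and 384 (-0.11). Spermatogonial markers had 7 positive of 8 and a median of 0.22, Sertoli markers 5 of 9 and 0.01, Leydig markers 1 of 4 and -0.26, and macrophage and leukocyte markers 3 of 3 and 0.21. No erythroid marker reached a mean of 1. Spermatid markers had mostly negative ratios, with 17 of 18 early and mid markers and 15 of 18 elongating markers negative and medians of -0.51 and -0.31. Many of these genes also stand in the acrosomal and flagellar lists, so these are not separate observations. Whether the cells in the MiwiR371W library were on average at another step of spermiogenesis was not tested.

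Of 32 adhesion and actin genes of spermatids 18 were negative, with a median of -0.10. Besides Fmn1, Cdh2 and Tmsb15b1, the spermatid profilin Pfn3 was past the rule downward, at 73.2, 77.0 and 29.2 in wild type, MiwiΔIns and MiwiR371W (-1.37), and Myo18a upward. That is 5 of the 31 list members that reached 5 in either library, beside 4.48% of all genes, but the list was chosen with earlier results known. Of 13 tubulin isotypes 8 were positive, with a median of 0.03, and only Tubb6 passed the rule. Of 23 genes of HOPS, CORVET, retromer and endosomal sorting 15 were positive, with a median of 0.07, and only Vps39 passed. Its HOPS partner Vps11 measured 11.98, 11.3 and 14.5 (0.33).

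Lists of mRNA storage, decay, transcription and splicing genes had small medians. Of 39 genes of germline mRNA storage and translation 21 were positive, with a median of 0.07. Lsm14a, a component of mRNA granules, passed the rule at 13.3, 18.4 and 8.33 (-1.06), though not with a pseudocount of 5 or after scaling to equal sums. Ybx2, the Y-box protein that masks spermatid mRNAs, measured 2623, 2141 and 2415 (0.17), one of the largest positive differences in value. Pgp was another, at 960, 703 and 955 (0.44). Of 50 genes of deadenylation, decapping and decay 31 were positive, with a median of 0.07 and none past the rule. Among the 32 whose mean reached 5, 24 were positive and 8 negative, with a median of 0.14. Cnot1, the scaffold of the CCR4-NOT deadenylase, measured 127, 142 and 173 (0.28) and Upf3a 250, 241 and 242 (0.00). Zfp36, which recruits deadenylases to AU-rich mRNAs, measured 1.35, 1.15 and 4.54 (1.37), below 5 throughout. Of 30 RNA polymerase II and splicing genes 17 were negative, with a median of -0.04 and none past the rule. Hnrnpu measured 314, 314 and 330 (0.07) and Sf3b2 79.6, 79.3 and 98.1 (0.30).

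Of 14 BCL2 family and p53 target genes 10 were positive, with a median of 0.26. Bcl2l11, which encodes the death activator BIM, passed the rule in the other direction at 20.6, 14.1 and 4.98 (-1.33), though not with a pseudocount of 5. Of 5 interferon response genes 4 were positive, with a median of 0.14 and none past the rule, and Ifi27 measured 4.23, 6.47 and 9.12 (0.44). Of 8 snoRNA hosts and nuclear long RNAs 6 were negative, with a median of -0.23, and Malat1, a nuclear RNA, passed at 15.9, 14.7 and 4.91 (-1.41), though not with a pseudocount of 5. Among lists added after the values were seen, 15 of 24 ADAM metalloproteases were negative, with a median of -0.35 and none past the rule. The 9 Speer genes were all positive, with a median of 0.39, and several have near-identical copies. All 9 reached 5 and 2, Speer4c and Speer4d, passed the rule upward, against 1.27% of all genes that reached 5. These are near-identical copies of each other, and of the mutants only MiwiR371W reached 5 for Speer4d. No excess is read from that share.

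X-linked genes, a set chosen after the values were seen, had lower ratios than autosomal genes. Of 456 X-linked genes 303 had negative ratios and the median was -0.24, whereas the medians of the 19 autosomes ran from -0.02 to 0.10. Of the 275 that reached 5, 31 were lower and 3 higher, so 11.3% were lower, against 1.31% to 4.81% on single autosomes. Set beside wild type the X-linked median was -0.03 in MiwiR371W and 0.21 in MiwiΔIns. Relative to all genes the X-linked median stayed between -0.32 and -0.16 under every alternative scaling, pseudocount and correction tried. Genes on the Y chromosome, 26 in all, had a median of 0.05.

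The X-linked difference grew with abundance. With genes ranked by mean value into 5 equal bins, in the least abundant bin the X-linked median was 0.03 over 125 genes, and in the most abundant bin it was -0.70 over 31 genes, of which 30 were negative. The autosomal medians of these bins were 0.08 and -0.09. By transcript length it ran the other way, from -0.47 over the 118 X-linked genes of the shortest of 5 equal bins to 0.01 over the 79 of the longest. In the most abundant bin the X-linked median beside wild type was 0.63 for MiwiΔIns and -0.13 for MiwiR371W. X-linked genes with near-identical copies had a median of -0.42 and those without -0.37, among those that reached 5. Cstf2, a polyadenylation factor, measured 50.01 in the wild type, 77.8 with MiwiΔIns and 39.0 with MiwiR371W (-0.98). Tsga8 measured 306, 364 and 235 (-0.63) and Cylc1, of the sperm head calyx, 60.0, 76.9 and 47.1 (-0.70). Akap4, the main fibrous sheath protein, was an exception among abundant X-linked genes at 581, 676 and 652 (-0.05). These genes were chosen after their values were seen.

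**Figure D4:**
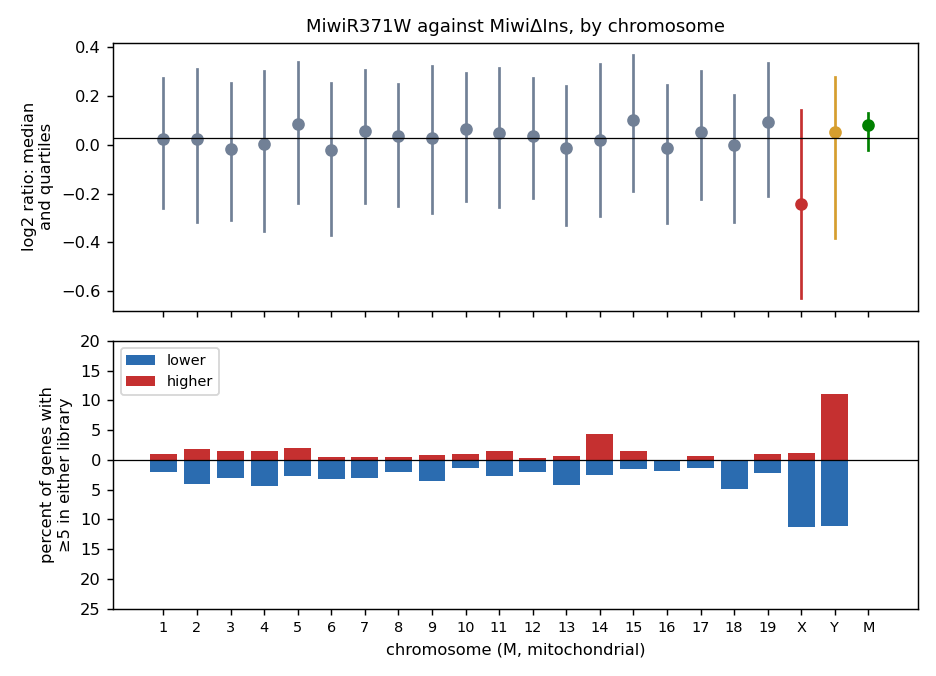
Top, the median log2 ratio (point) and quartiles (line) of each chromosome's genes; bottom, the percent of its genes with at least 5 in either library that were higher (red, upward) or lower (blue, downward). The X chromosome has a median of -0.24 and 11.3% lower genes; the Y chromosome bars stand for 1 gene each of 9.

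**Figure D5:**
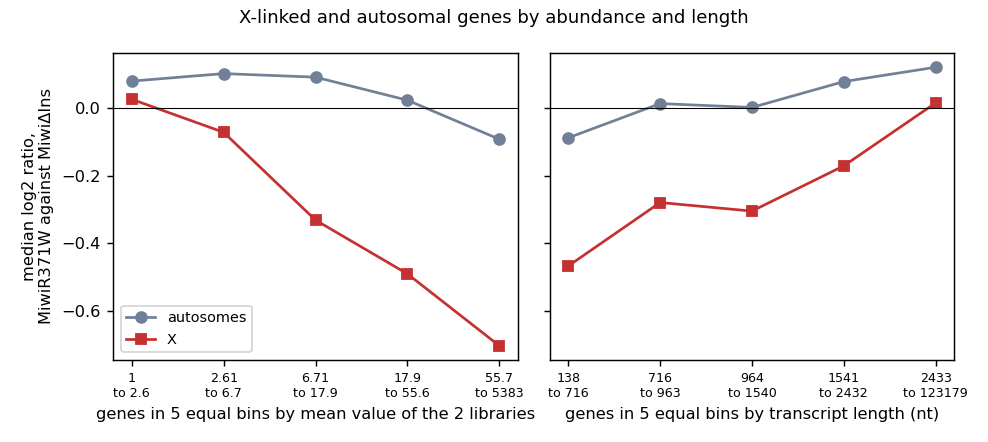
Median log2 ratio of X-linked (squares) and autosomal (circles) genes in 5 equal bins of mean value over both libraries (left) and of transcript length (right). The X-linked median passes from 0.03 to -0.70 with abundance, and the autosomal median from 0.08 to -0.09.

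Transcript class and length also went with the ratio. Of genes that reached 5, 15.4% of 240 lincRNAs, 11.6% of 250 antisense genes and 11.2% of 215 pseudogenes were lower, against 2.25% of 7895 protein-coding genes. The same classes were also more often higher, with 3.33%, 3.20% and 5.12% against 1.03%. RIKEN clone genes whose names begin with 17 or 49, series cloned from testis, had a median of -0.35, with 567 of 747 negative, 74 lower and 4 higher. The lincRNA 1700023C21Rik had the most negative ratio of all, with 13.0 in the wild type, 29.5 with MiwiΔIns and 1.87 with MiwiR371W (-3.41). It is a transcript of 389 nt, and these values rest on an estimated 38 fragments for MiwiΔIns and 1 for MiwiR371W. The pseudogene 5830417I10Rik measured 38.9, 39.7 and 5.73 (-2.60) on an estimated 3415 and 366 fragments. Upward, the antisense gene Gm17178, which shares sequence with Aspscr1, measured 5.70, 0.83 and 10.6 (2.67) on an estimated 1 and 6 fragments, and 1700022K14Rik measured 0.18, 4.48 and 19.7 (1.92). Of 5 equal bins by transcript length, the shortest, up to 716 nt, had a median of -0.10 with 7.14% lower and 2.34% higher genes, and the longest a median of 0.12 with 1.14% lower and 0.568% higher. Across 12393 genes Spearman's rho of the ratio was 0.14 with length, 0.13 with GC content and -0.15 with mean value, as a description over genes of the same libraries. The median transcript length was 738 nt for lower genes, 795 nt for higher genes and 1158 nt for all that reached 5. With the trend on length and GC content removed, 121 genes were higher and 201 lower, and the acrosomal median relative to all genes was -0.65 against -0.69 before. How far depth, transcript length and library preparation enter these ratios was not tested beyond that.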

How the data were processed

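One messenger RNA library per genotype was sequenced from sorted round spermatids. The authors deposited a gene table whose values are a normalised signal, not counts. Trim Galore 0.5.0, STAR and RSEM on mm10 (GRCm38) are listed, per the submitters' processing notes; whether the signal is FPKM or TPM is not given in the sources used here, and ratios between libraries could shift by a common factor with it. The design applied its rules to the deposited values unchanged. What 1 fragment was worth was estimated from the steps of low values in single-transcript genes over 2500 nt, giving step sizes of 0.0735, 0.0685 and 0.0915 value × kb for wild type, MiwiΔIns and MiwiR371W. Estimated fragments and their error cover counting only.

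Gene positions, overlaps, transcript length and GC content were taken from GENCODE M21 and matched by identifier for 17673 genes (98.5%). Near-identical copies had at least 95% identity over at least 50% of the longest transcript (BLAST+ 2.17.0). RefSeq promoters were matched by symbol. Tables were computed with Python 3.11.15, pandas 2.3.3 and scipy 1.17.1, and the step search was tested on simulated data.

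The genes compared and the 39 lists were chosen with earlier results of these data known. Named genes were Piwil1, the 12 largest ratios each way among named coding genes counted as higher or lower with at least 10 in the higher library, the 4 largest each way among other names and types, up to 3 counted members each way per list or else the 2 most abundant, the 3 largest differences in value each way and the 5 most abundant genes. Genes of mitochondrial ribosomal RNA were left out of the rankings by difference in value and by abundance. Other genes named within a list or family were chosen after their values were seen. Alternatives were pseudocounts of 0.1 and 5, no minimum or a minimum of 10, 4 scalings, removal of the length and GC trend, and protein-coding genes alone.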

Additional observations from a re-analysis of the deposited data

How the results depend on the processing

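The count of 111 higher genes became 31 with a pseudocount of 5, 227 with no minimum, 56 with a minimum of 10 and 175 after scaling to equal sums. The count of 281 lower genes became 143 with a pseudocount of 5 and 178 among protein-coding genes alone; both follow from how these alternatives are built. The median log2 ratio of all genes, 0.03, became 0.15 after scaling to equal sums and 0.14 without mitochondrial and the 50 most abundant genes. No result changed direction among those called. Of 46 named genes past the size rule, 32 passed it under every alternative, and the others fell short mostly with a pseudocount of 5. X-linked and autosomal summaries and the 4 added lists were put through the same alternatives after the data were seen; the X-linked count of lower genes ran from 18 to 39. No paired analysis was possible because each genotype has 1 library. For the same reason no library could be left out, and depth limits ratios of genes near a value of 5.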
